A study of Mus musculus with 36 samples.

Results

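The effect of losing ERRalpha with ERRgamma was set against the effect of losing ERRbeta with ERRgamma in soleus, the slow postural muscle of the mouse hind limb. The 12 soleus libraries of these 2 deletion classes were used, of 36 in the series. They fall into 4 groups of 3: ERRalpha/ERRgamma dmKO, its own WT littermates, ERRbeta/ERRgamma dmKO, and its own WT littermates. The quantity studied is the difference of changes, that is, the dmKO minus WT change in the ERRalpha/ERRgamma class minus the dmKO minus WT change in the ERRbeta/ERRgamma class. A negative value means that the gene was lower, relative to littermates, in the ERRalpha/ERRgamma class. Since each class has its own WT group, the 2 changes share no control library. RNA abundance was measured by directional mRNA sequencing in the 2 soleus classes, an ERRalpha class and the same 3 classes in the fast extensor digitorum longus (EDL). The 2 classes in EDL are used only to show where soleus differs. The mice were 1-year-old males on the C57BL/6JBom background, backcrossed for at least 10 generations and fed breeder chow. In dmKO mice, floxed receptor genes were crossed to Cre recombinase driven by the human alpha-skeletal actin promoter, which is active in muscle fibres, so the vessels, nerve, connective tissue and blood cells of the muscle keep their receptors. WT littermates were read as floxed mice without Cre. The letters FXp and FX- in the column names were read as floxed with and without Cre, and the direction of every change rests on that reading, so the libraries are called dmKO-labelled.

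Estrogen-related receptors (ERRs) are orphan nuclear receptors that bind DNA without a known natural hormone and are switched on by coactivators of the PGC-1 family. ERRalpha, ERRbeta and ERRgamma recognise closely related DNA sites, and their known targets include genes for oxidative phosphorylation, the tricarboxylic acid (TCA) cycle and fatty acid oxidation. By their labels, both double deletions remove ERRgamma, which is abundant in oxidative muscle. The comparison thus asks how loss of ERRalpha and loss of ERRbeta differ when ERRgamma is also lost. Receptor loss was taken from the labels, and the RNA values below do not show it for Esrrb or Esrrg.

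Values are the authors' log2 quantile-normalized signals, and changes are differences of log2 values ± SE, with 3 libraries per group. A gene was called where the limma test, fitted over all 36 libraries, gave a Benjamini-Hochberg adjusted p under 0.05. Normalization removed the read totals, so depth is unknown, and 14183 to 14975 genes were detected per library. ERRbeta/ERRgamma dmKO-labelled library 1 stood apart. It lay at -54.5 on the second principal component, where the other 11 libraries lay between -13.1 and 23.2, and its summed leukocyte marker signal was 353, against 41.6 to 111 in the other 2 of its group and 30.5 to 100 in their WT libraries. The median gene SD was 0.243 in the ERRbeta/ERRgamma dmKO-labelled group and 0.155 to 0.17 in the other 3. The WT groups of the 2 classes also differed from each other, with 1855 of 13378 genes called (13.9%), 802 higher (5.99%) and 1053 lower (7.87%) in the ERRalpha/ERRgamma WT libraries. In bulk muscle, fewer cells of a type and less RNA per cell cannot be told apart. The slow myosin gene Myh7 lay at 10.41, 10.10 and 9.70 in ERRalpha/ERRgamma dmKO-labelled libraries, against 9.32, 9.87 and 9.43 in WT. It lay at 9.69, 10.49 and 10.40 in ERRbeta/ERRgamma dmKO-labelled libraries, against 10.11, 10.21 and 10.02 in WT.

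**Figure D1:**
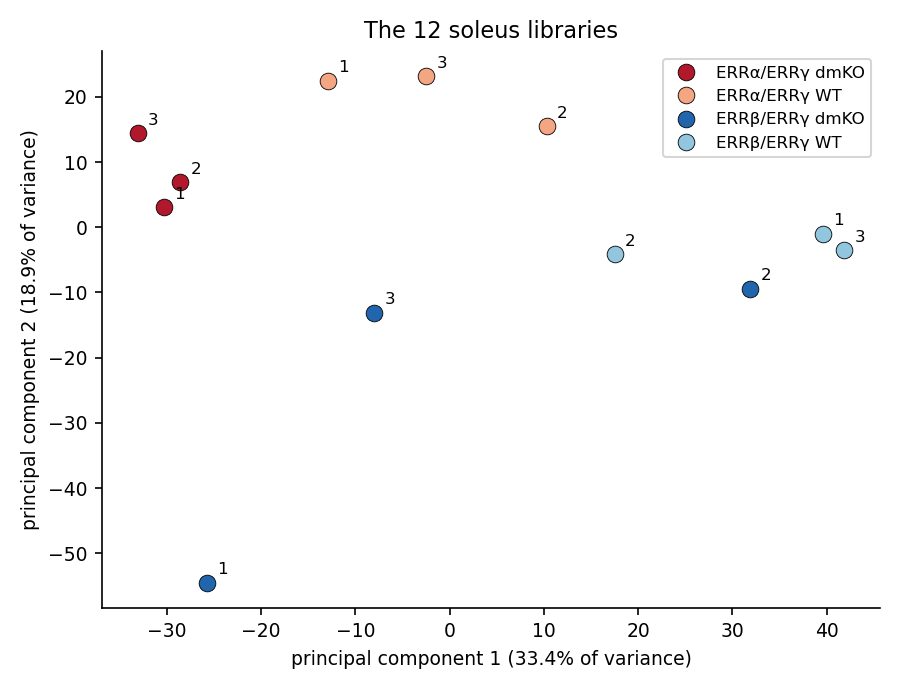
The 12 soleus libraries on the first principal component (horizontal axis, 33.4% of variance) and the second (vertical axis, 18.9%), coloured by group and numbered in column order. The 3 ERRalpha/ERRgamma dmKO-labelled libraries lie together at the left, while the ERRbeta/ERRgamma dmKO-labelled libraries spread from -25.8 to 31.9 on the first component, with library 1 alone at the bottom.

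The receptor genes were examined first. Esrra, which encodes ERRalpha (chromosome 19, 6910977 to 6921813, minus strand of GRCm38), held 5.12, 5.06 and 5.15 in ERRalpha/ERRgamma dmKO-labelled libraries, against 5.45, 5.66 and 5.95 in their WT libraries. In ERRbeta/ERRgamma dmKO-labelled libraries it held 5.42, 5.49 and 5.59, against 5.50, 5.42 and 5.36 in their WT libraries. Every ERRalpha/ERRgamma dmKO-labelled library was thus below every other soleus library of the 2 classes, and the difference of changes was -0.65 ± 0.16 (adjusted p = 0.0411). That call was lost in the fit of the 12 soleus libraries alone (adjusted p = 0.169) and in 9 of the 12 fits that each leave out 1 library (adjusted p up to 0.147). Esrrb, which encodes ERRbeta (chromosome 12, 86361117 to 86521628, plus strand), held 2.78, 2.66 and 2.41 in ERRalpha/ERRgamma dmKO-labelled libraries, against 2.88, 3.14 and 2.98 in WT. It held 2.97, 3.02 and 2.76 in ERRbeta/ERRgamma dmKO-labelled libraries, against 2.81, 2.57 and 2.52 in WT, so it was not lower in the class that names it, and the difference of -0.67 ± 0.30 was not called (adjusted p = 0.349). Esrrg, which encodes ERRgamma (chromosome 1, 187608791 to 188214885, plus strand), rose in both classes, by 1.21 ± 0.15 in ERRalpha/ERRgamma and 1.09 ± 0.15 in ERRbeta/ERRgamma, and the difference was 0.12 ± 0.21 (95% interval -0.32 to 0.55). A signal summed over a whole gene can persist when part of the gene is deleted, so Esrrb and Esrrg give no check of the labels. The rise of Esrrg is more than a persisting signal, and its cause was not tested. Trmt112 overlaps the end of Esrra, and whether reads were counted by strand is not given in the sources used here, so reads from the overlap cannot be told apart.

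Nuclear genes of the respiratory chain and the TCA cycle fell in the ERRalpha/ERRgamma class well beyond their change in the ERRbeta/ERRgamma class, while genes of fatty acid oxidation fell in both with no called difference. In all, 161 of 13365 genes tested differed between the classes (1.2%), with 118 lower (0.883%) and 43 higher (0.322%). Of the 118 lower genes, 49 belong to the respiratory chain lists and 75 to any pathway list. Their median difference was -0.67, made of a median change of -0.79 in the ERRalpha/ERRgamma class and -0.13 in the ERRbeta/ERRgamma class. The ERRalpha/ERRgamma change alone was called for 94 of the 118, both changes for 22 and the ERRbeta/ERRgamma change alone for 2. Of the 43 higher genes, 36 were called in the ERRalpha/ERRgamma class alone, 6 in the ERRbeta/ERRgamma class alone and 1 in both. Over all genes tested the median difference was 0.04, made of a median change of 0.11 in the ERRalpha/ERRgamma class and 0.05 in the ERRbeta/ERRgamma class. The changes within a class share their libraries with the difference. Of the ERRalpha/ERRgamma class, 1700 genes changed (12.7%), 915 higher (6.84%) and 785 lower (5.86%), which became 551 and 910 after recentring each library on its median. Of the ERRbeta/ERRgamma class, 898 genes changed (6.71%), 423 higher (3.16%) and 475 lower (3.55%), which became 304 and 605 after recentring. Both classes were called in 430 genes, in the same direction in every one of them.

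The count of differences depends on how the spread was estimated and on single libraries. With the 12 soleus libraries alone 29 genes were called, all among the 161 (24 lower, 5 higher), and 12 of the 24 were respiratory chain genes (6 of complex I, 3 of complexes II and III, 3 of cytochrome c oxidase and none of ATP synthase) and 3 TCA cycle genes. With the 18 soleus libraries 96 genes were called, 36 of them respiratory chain genes and 8 TCA cycle genes, with Sdhb in both lists. Without ERRbeta/ERRgamma dmKO-labelled library 1 there were 202 (1.51%), 55 higher (0.412%) and 147 lower (1.1%), which held 26 of the 43 higher and 110 of the 118 lower genes. Without library 2 of that group there were 323, and without ERRalpha/ERRgamma WT library 3 there were 122. The change within the ERRbeta/ERRgamma class was called for 396 genes without library 1 (2.96%), 188 higher (1.41%) and 208 lower (1.56%), and for 2139 without library 2.

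Complex I, the NADH dehydrogenase that starts the respiratory chain, had 36 nuclear subunit genes tested. Of these 20 were lower in the difference and none was higher, with a median difference of -0.46. The WT groups differed in 8 of the 36, each higher in ERRalpha/ERRgamma WT (5.99% of all genes tested). Set directly against each other, the dmKO-labelled groups had a median difference of -0.35. In the ERRalpha/ERRgamma class 28 of the 36 fell (median -0.53) and in the ERRbeta/ERRgamma class none (median -0.04). Ndufa8 (chromosome 2, 36036326 to 36049406, minus strand), an accessory subunit facing the intermembrane space, held 6.53, 6.61 and 6.59 in ERRalpha/ERRgamma dmKO-labelled libraries, against 7.62, 7.51 and 7.57 in WT. It held 7.24, 7.39 and 7.36 in ERRbeta/ERRgamma dmKO-labelled libraries, against 7.43, 7.43 and 7.43 in WT. Both dmKO-labelled groups lay below all their WT libraries, but the gap in the second class was small and its change of -0.10 ± 0.066 was not called, and the difference was -0.89 ± 0.093 (95% interval -1.08 to -0.70, adjusted p = 2.96e-06). Ndufab1, the mitochondrial acyl carrier protein, stood at 49.6% of WT in the ERRalpha/ERRgamma class and 87.6% in the ERRbeta/ERRgamma class (difference -0.82 ± 0.092). Ndufa13 differed by -0.91 ± 0.12, but its 2 WT groups differed too, by 0.39 ± 0.084 (adjusted p = 0.00232), and its dmKO-labelled groups by -0.51 ± 0.084. The catalytic flavoprotein subunit Ndufv1 differed by -0.81 ± 0.12 and Ndufa10 by -0.82 ± 0.11. Ndufs1, the large iron-sulfur subunit, was not called at -0.47 ± 0.15 (adjusted p = 0.126).

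**Figure D2:**
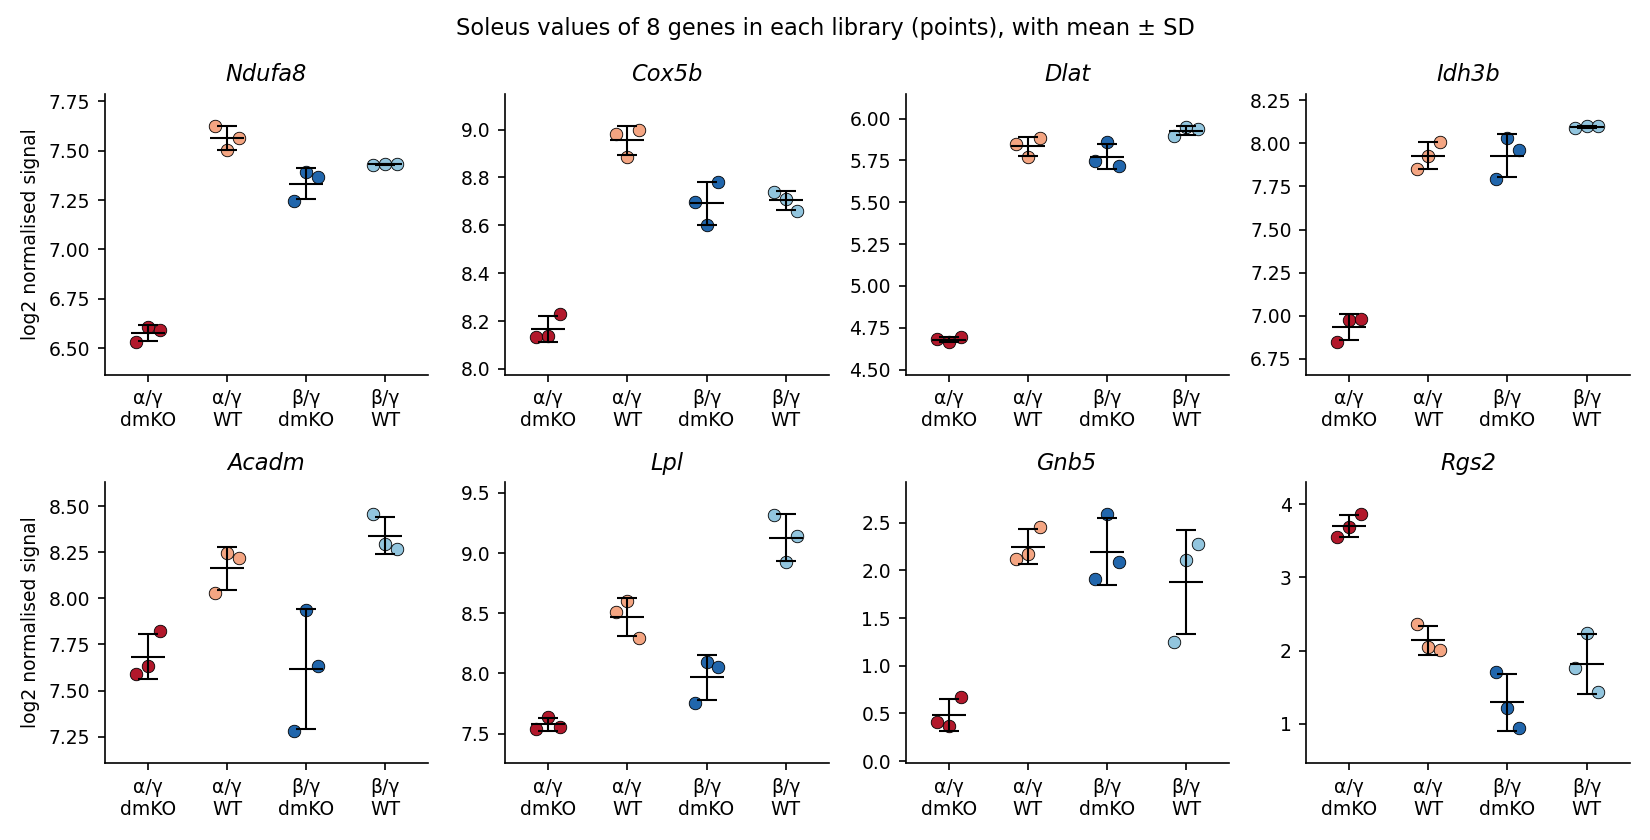
Log2 normalised signal of 8 genes (vertical axis of each panel, not starting at 0) in the 4 soleus groups (horizontal axis); points are libraries, and lines give the mean ± SD of 3. For Ndufa8, Cox5b, Dlat and Idh3b the ERRalpha/ERRgamma dmKO-labelled points lie far below the other 3 groups, for Acadm and Lpl both dmKO-labelled groups lie under their WT groups, and Gnb5 and Rgs2 are a lower and a higher gene outside energy metabolism.

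Complexes II and III with cytochrome c, which pass electrons from succinate and ubiquinol onward, had 11 of 14 genes lower, with a median difference of -0.59. All 14 fell in the ERRalpha/ERRgamma class (median -0.76) and 3 in the ERRbeta/ERRgamma class (median -0.13), or 1 of these without ERRbeta/ERRgamma dmKO-labelled library 1 or 3 or WT library 2 or 3 of that class. Uqcrc1 (chromosome 9, 108936633 to 108949623, plus strand), a core protein of complex III, held 7.67, 7.58 and 7.58 in ERRalpha/ERRgamma dmKO-labelled libraries, against 8.40, 8.51 and 8.62 in WT. In ERRbeta/ERRgamma dmKO-labelled libraries it held 8.10, 8.34 and 8.25, against 8.31, 8.38 and 8.38 in WT. The ERRalpha/ERRgamma groups were far apart and the ERRbeta/ERRgamma groups overlapped, and the difference was -0.77 ± 0.11 (adjusted p = 0.000106). Uqcrq, a small subunit of complex III that binds ubiquinone, differed by -0.94 ± 0.12. Uqcr10 differed by -0.60 ± 0.089, with a WT difference of 0.23 ± 0.063 (adjusted p = 0.0157). Sdhb, the iron-sulfur subunit of succinate dehydrogenase, fell in both classes, with changes of -1.05 ± 0.079 in the ERRalpha/ERRgamma class and -0.51 ± 0.079 in the ERRbeta/ERRgamma class (difference -0.55 ± 0.11). Sdhb was not called with the 12 soleus libraries alone (adjusted p = 0.102).

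Cytochrome c oxidase, which hands electrons to oxygen, had 10 of 14 genes lower and a median difference of -0.63. In the ERRalpha/ERRgamma class 12 of them fell (median -0.66) and in the ERRbeta/ERRgamma class 1, which was Cox6b1. Cox5b (chromosome 1, 36691449 to 36693681, plus strand) held 8.13, 8.14 and 8.23 in ERRalpha/ERRgamma dmKO-labelled libraries, against 8.98, 8.88 and 8.997 in WT. It held 8.70, 8.60 and 8.78 in ERRbeta/ERRgamma dmKO-labelled libraries, against 8.74, 8.71 and 8.66 in WT, where the 2 groups overlap. The difference was -0.77 ± 0.10 (adjusted p = 3.31e-05), and the WT groups differed by 0.25 ± 0.073 (adjusted p = 0.0216). WT groups differed in the same direction for 7 of the 14 genes, with the ERRalpha/ERRgamma WT higher (5.99% of all genes tested). Set directly against each other, ERRalpha/ERRgamma dmKO-labelled libraries were lower than ERRbeta/ERRgamma dmKO-labelled libraries in 8 of the 14 and higher in 1. Over all genes tested these shares were 6.71% and 8.71%. The median direct difference over the 14 was -0.31, and the median difference between the WT groups was 0.29. Cox5a differed by -0.69 ± 0.085, with WT groups that were not called apart (0.009 ± 0.06). Cox6b1, the subunit that bridges the dimer, differed by -0.81 ± 0.10, and the muscle and heart isoform gene Cox7a1 by -0.70 ± 0.12, which was not called with the 12 soleus libraries alone (adjusted p = 0.0679).

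ATP synthase, which turns the proton gradient into ATP, had 8 of 15 genes lower (median difference -0.42), with 13 lower in the ERRalpha/ERRgamma class and 3 in the ERRbeta/ERRgamma class (1 without dmKO-labelled library 1 or WT library 3 of the ERRbeta/ERRgamma class). Atp5g3 (chromosome 2, 73908447 to 73911326, minus strand), 1 of 3 genes for the rotor subunit c, held 8.83, 8.77 and 8.84 in ERRalpha/ERRgamma dmKO-labelled libraries, against 9.78, 9.46 and 9.84 in WT. It held 9.40, 9.43 and 9.42 in ERRbeta/ERRgamma dmKO-labelled libraries, against 9.56, 9.65 and 9.57 in WT. Both dmKO-labelled groups lie under their WT groups, the first by more, and the difference was -0.70 ± 0.13 (adjusted p = 0.00349). Atp5h, of the peripheral stalk, differed by -0.53 ± 0.10 and fell in both classes, with changes of -0.87 ± 0.071 in ERRalpha/ERRgamma and -0.34 ± 0.071 in ERRbeta/ERRgamma. Atp5f1, also of the peripheral stalk, differed by -0.54 ± 0.10. The catalytic subunit genes Atp5b (-0.36 ± 0.13, adjusted p = 0.192) and Atp5a1 (-0.51 ± 0.14, adjusted p = 0.0707) were not called. Over the 79 respiratory chain genes of these lists 49 were lower and none higher, and the median difference of -0.53 stands beside 0.04 for all genes tested. The WT groups differed in 17 of the 79, each higher in ERRalpha/ERRgamma WT, and the direct dmKO-labelled median difference was -0.39. Part of the class difference thus lies between the WT groups. Atp5f1, Atp5g3 and Atp5h were not called in the fit of the 12 soleus libraries alone (adjusted p = 0.13, 0.0934 and 0.102).

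ERRs bind extended half-sites, so promoters of these genes were searched for the letters TNAAGGTCA and for the shorter AAGGTCA that it contains, on both strands. The sequences are RefSeq promoter windows on GRCm38.p6, from 250 bases before to 50 after each gene start. Among the lower genes 98 of 118 had a window, and 7 of these held AAGGTCA (7.14%), against 404 of 10223 genes tested (3.95%). TNAAGGTCA was held by 1 lower gene (1.02%), Atp5g3, against 97 of the tested genes (0.949%). Of 65 respiratory chain genes with a window, 8 held AAGGTCA (12.3%) and 3 held TNAAGGTCA (4.62%), and of 23 TCA cycle genes 2 held AAGGTCA (8.7%) and 1 held TNAAGGTCA (4.35%). For fatty acid genes AAGGTCA was in 1 of 23 (4.35%), Acadm, and for the higher genes in 1 of 34 (2.94%). A match is a description and not a binding site. Windows of 4 genes are shown, with matched letters in capitals, because they hold a match and stand for genes that did and did not differ between the classes: the ATP synthase gene Atp5g3 (chr2:73911277-73911576, minus strand), Gnb5 (chr9:75306038-75306337, plus strand), the iron-sulfur assembly gene Isca1 (chr13:59769740-59770039, minus strand), all lower, and the fatty acid gene Acadm (chr3:153944594-153944893, minus strand), which was not called. They were chosen after their values were seen.
Atp5g3: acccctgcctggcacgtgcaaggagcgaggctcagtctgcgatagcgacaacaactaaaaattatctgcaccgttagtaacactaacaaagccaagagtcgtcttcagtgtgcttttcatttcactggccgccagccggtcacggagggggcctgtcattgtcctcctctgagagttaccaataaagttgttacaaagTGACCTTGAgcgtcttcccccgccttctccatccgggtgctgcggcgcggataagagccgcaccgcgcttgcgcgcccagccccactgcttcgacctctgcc
Gnb5: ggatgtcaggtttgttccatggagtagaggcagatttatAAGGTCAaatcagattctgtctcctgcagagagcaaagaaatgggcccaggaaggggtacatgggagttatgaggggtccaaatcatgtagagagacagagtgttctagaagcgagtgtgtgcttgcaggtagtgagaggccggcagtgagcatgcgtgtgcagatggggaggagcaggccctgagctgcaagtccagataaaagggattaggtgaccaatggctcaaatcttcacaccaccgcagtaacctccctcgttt
Isca1: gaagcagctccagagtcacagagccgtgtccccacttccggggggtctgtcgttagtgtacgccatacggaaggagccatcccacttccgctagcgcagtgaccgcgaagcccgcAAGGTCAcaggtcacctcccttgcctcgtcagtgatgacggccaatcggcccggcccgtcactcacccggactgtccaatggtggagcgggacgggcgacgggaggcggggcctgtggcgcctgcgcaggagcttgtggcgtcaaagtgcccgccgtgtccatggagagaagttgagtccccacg
Acadm: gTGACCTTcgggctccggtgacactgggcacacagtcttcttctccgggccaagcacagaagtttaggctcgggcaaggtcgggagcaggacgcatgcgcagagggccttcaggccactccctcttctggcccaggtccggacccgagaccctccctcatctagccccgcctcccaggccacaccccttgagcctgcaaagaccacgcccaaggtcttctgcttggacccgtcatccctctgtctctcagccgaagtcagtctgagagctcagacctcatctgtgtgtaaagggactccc
In Atp5g3 and Acadm the match reads on the opposite strand, so the capitals show its reverse complement, and in Gnb5 and Isca1 it reads on the strand of the gene. The first base of the match lies 52 bases before the start of Atp5g3, 211 before Gnb5, 135 before Isca1 and 249 before Acadm.

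The TCA cycle and the pyruvate dehydrogenase complex, which oxidise acetyl groups and supply NADH, had 14 of 26 genes lower and none higher, with a median difference of -0.42. The list shares Sdha, Sdhb, Sdhc and Sdhd with that of complexes II and III. Of these, Sdha and Sdhb are among the 14 and also among the 49 respiratory chain genes. Of the 14, Dlat, Idh3b and Dlst were lower with the 12 soleus libraries alone, and 8 were with the 18. In the ERRalpha/ERRgamma class 25 of the 26 fell (median -0.66) and in the ERRbeta/ERRgamma class 7 (median -0.17). Those 7 became 3 without ERRbeta/ERRgamma dmKO-labelled library 1, 3 without WT library 3 and 15 without dmKO-labelled library 2 of that class. Dlat (chromosome 9, 50634633 to 50659780, minus strand), the acetyltransferase core of pyruvate dehydrogenase, held 4.68, 4.66 and 4.69 in ERRalpha/ERRgamma dmKO-labelled libraries, against 5.85, 5.77 and 5.88 in WT. In ERRbeta/ERRgamma dmKO-labelled libraries it held 5.75, 5.86 and 5.71, against 5.90, 5.95 and 5.94 in WT. The ERRalpha/ERRgamma class was left with 44.9% of its WT level and the ERRbeta/ERRgamma class with 89.9%, and the difference was -1.001 ± 0.11 (95% interval -1.23 to -0.77, adjusted p = 4.67e-06). Other parts of the complex also differed: Pdhx by -0.66 ± 0.14, Pdha1 by -0.43 ± 0.11 and Pdhb by -0.37 ± 0.087, and for Pdha1 and Pdhb the WT groups differed too, by -0.48 ± 0.076 and -0.29 ± 0.061. Idh3b (chromosome 2, 130279309 to 130284547, minus strand), a subunit of NAD-dependent isocitrate dehydrogenase, held 6.85, 6.97 and 6.98 in ERRalpha/ERRgamma dmKO-labelled libraries, against 7.85, 7.93 and 8.01 in WT. It held 7.79, 8.03 and 7.96 in ERRbeta/ERRgamma dmKO-labelled libraries, against 8.09, 8.10 and 8.10 in WT. Both dmKO-labelled groups again lay below their WT libraries, the second by an uncalled -0.17 ± 0.067, and the difference was -0.83 ± 0.094 (adjusted p = 4.67e-06). Dlst, the succinyltransferase of the oxoglutarate dehydrogenase complex, differed by -0.89 ± 0.13 and Suclg1, of succinyl-CoA ligase, by -0.79 ± 0.10. Mdh1, the cytosolic malate dehydrogenase, and Mdh2, the mitochondrial one, differed by -0.71 ± 0.14 and -0.49 ± 0.11. The NADP-dependent Idh2 fell in both classes, with changes of -0.96 ± 0.20 in ERRalpha/ERRgamma and -1.20 ± 0.20 in ERRbeta/ERRgamma, and a difference of 0.24 ± 0.28 that was not called (95% interval -0.33 to 0.81). Citrate synthase, Cs, was not called (-0.20 ± 0.12, adjusted p = 0.558). Suclg1, Pdhx, Pdha1, Pdhb, Mdh1 and Mdh2 were not called with the 12 soleus libraries alone (adjusted p = 0.0538, 0.128, 0.336, 0.309, 0.0934 and 0.261).

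**Figure D3:**
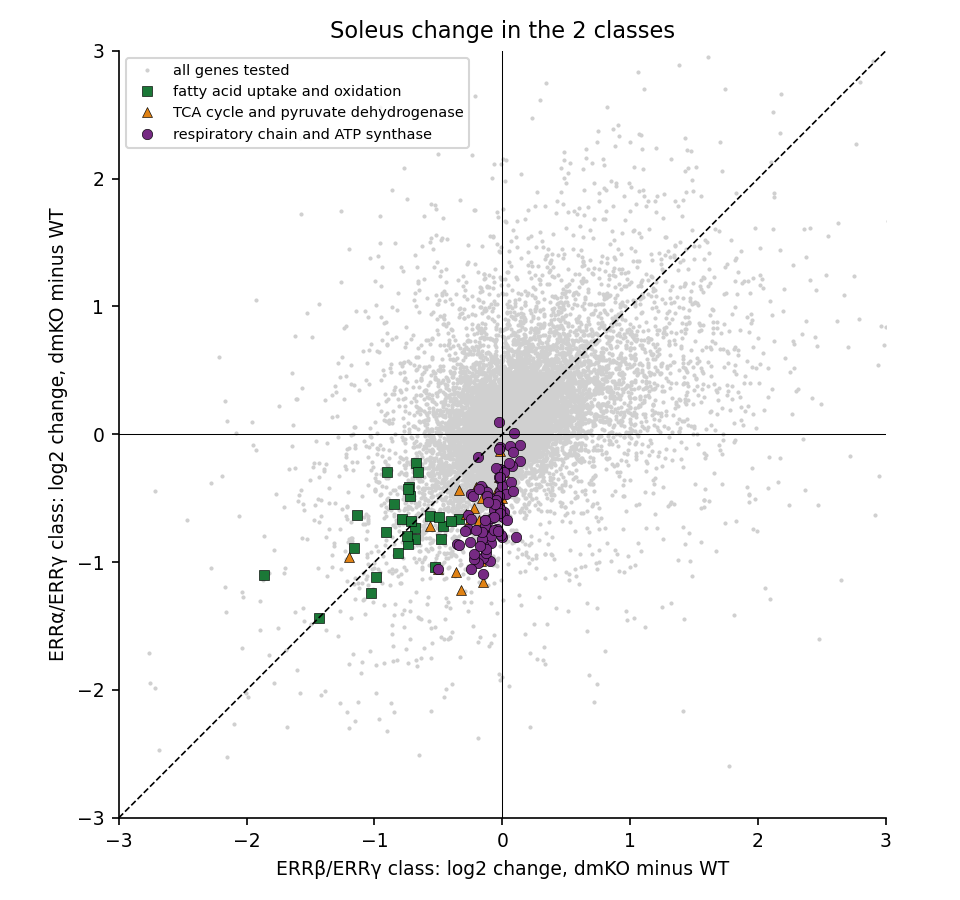
Log2 change in the ERRalpha/ERRgamma class (vertical axis) against the ERRbeta/ERRgamma class (horizontal axis), dmKO-labelled minus WT, for all genes tested in grey, with 25 genes beyond 3 on either axis not drawn. Of 79 respiratory chain genes (purple) 77 lie below the dashed line of equal change, as do most TCA cycle genes (orange), while fatty acid genes (green) lie along it.

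Fatty acid uptake and oxidation fell in both classes. Of 28 genes, 23 fell in the ERRalpha/ERRgamma class (median -0.70) and 26 in the ERRbeta/ERRgamma class (median -0.73), 22 of them in both, and none was called in the difference (median -0.03). The 26 became 21 without ERRbeta/ERRgamma dmKO-labelled library 1, where the median difference was -0.13. With the 12 soleus libraries alone, 20 fell in the ERRalpha/ERRgamma class and 19 in the ERRbeta/ERRgamma class. Lpl, the lipoprotein lipase that frees fatty acids at the vessel wall, held 7.54, 7.64 and 7.56 in ERRalpha/ERRgamma dmKO-labelled libraries, against 8.51, 8.60 and 8.30 in WT. It held 7.75, 8.10 and 8.06 in ERRbeta/ERRgamma dmKO-labelled libraries, against 9.31, 8.93 and 9.14 in WT. In both classes the dmKO-labelled libraries were below all their WT libraries, and the difference was 0.27 ± 0.26 with a 95% interval of -0.27 to 0.81, while the WT groups differed by -0.66 ± 0.19 (adjusted p = 0.0169). Acadm, the medium-chain acyl-CoA dehydrogenase, held 7.59, 7.64 and 7.82 in ERRalpha/ERRgamma dmKO-labelled libraries, against 8.03, 8.24 and 8.22 in WT. It held 7.28, 7.94 and 7.63 in ERRbeta/ERRgamma dmKO-labelled libraries, against 8.46, 8.29 and 8.27 in WT. Neither class overlapped its WT group, and the difference was 0.24 ± 0.19 (95% interval -0.14 to 0.62). Hadha, the alpha subunit of the trifunctional protein, changed by -0.68 ± 0.15 in ERRalpha/ERRgamma and -0.71 ± 0.15 in ERRbeta/ERRgamma, with an interval of -0.39 to 0.45 for the difference. Fabp3, the muscle fatty acid binding protein, changed by -1.44 ± 0.27 and -1.44 ± 0.27 in the same order, and its interval of -0.79 to 0.79 is wide. For 18 of the 28 genes the interval lay wholly above -0.53, the median difference of the respiratory chain genes, and for 23 it held 0. Over all 13365 genes tested, the interval lay above -0.53 for 6873 and held 0 for 11778. The value of -0.53 comes from these same data. The lowest p in the list belonged to Echs1, the enoyl-CoA hydratase, at -0.51 ± 0.15 (adjusted p = 0.113), which was called without ERRbeta/ERRgamma dmKO-labelled library 1 (adjusted p = 0.0416). The fatty acid transporter Cd36 gave -0.30 ± 0.20 in the ERRalpha/ERRgamma class, which was not called, and fell in the ERRbeta/ERRgamma class (-0.90 ± 0.20), with no called difference (0.61 ± 0.28, adjusted p = 0.381).

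Of 21 genes for catabolism of branched-chain amino acids and ketone bodies, 16 fell in each class, 12 in both, none was called in the difference, and the median difference was -0.04. Without ERRbeta/ERRgamma dmKO-labelled library 1 the count in that class was 8, and with the 12 soleus libraries alone the counts were 9 in the ERRalpha/ERRgamma class and 5 in the ERRbeta/ERRgamma class. Bcat2, the mitochondrial branched-chain aminotransferase, changed by -0.82 ± 0.11 in ERRalpha/ERRgamma and -0.75 ± 0.11 in ERRbeta/ERRgamma (95% interval of the difference -0.39 to 0.26). Bckdhb, of the branched-chain keto acid dehydrogenase, changed by -0.60 ± 0.14 and -0.62 ± 0.14 in the same order (interval -0.39 to 0.42). Acad8, the isobutyryl-CoA dehydrogenase, had the lowest p of the list (-0.35 ± 0.13, adjusted p = 0.213). The 7 pyruvate dehydrogenase kinase and phosphatase genes and the 11 lipid droplet genes tested held no called difference. Pdpr, the regulatory subunit of the phosphatase, gave -0.42 ± 0.13 (adjusted p = 0.127) and was called without ERRbeta/ERRgamma dmKO-labelled library 1 (adjusted p = 0.0119). The droplet coat gene Plin3 gave 0.90 ± 0.29 (adjusted p = 0.135).

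**Figure D4:**
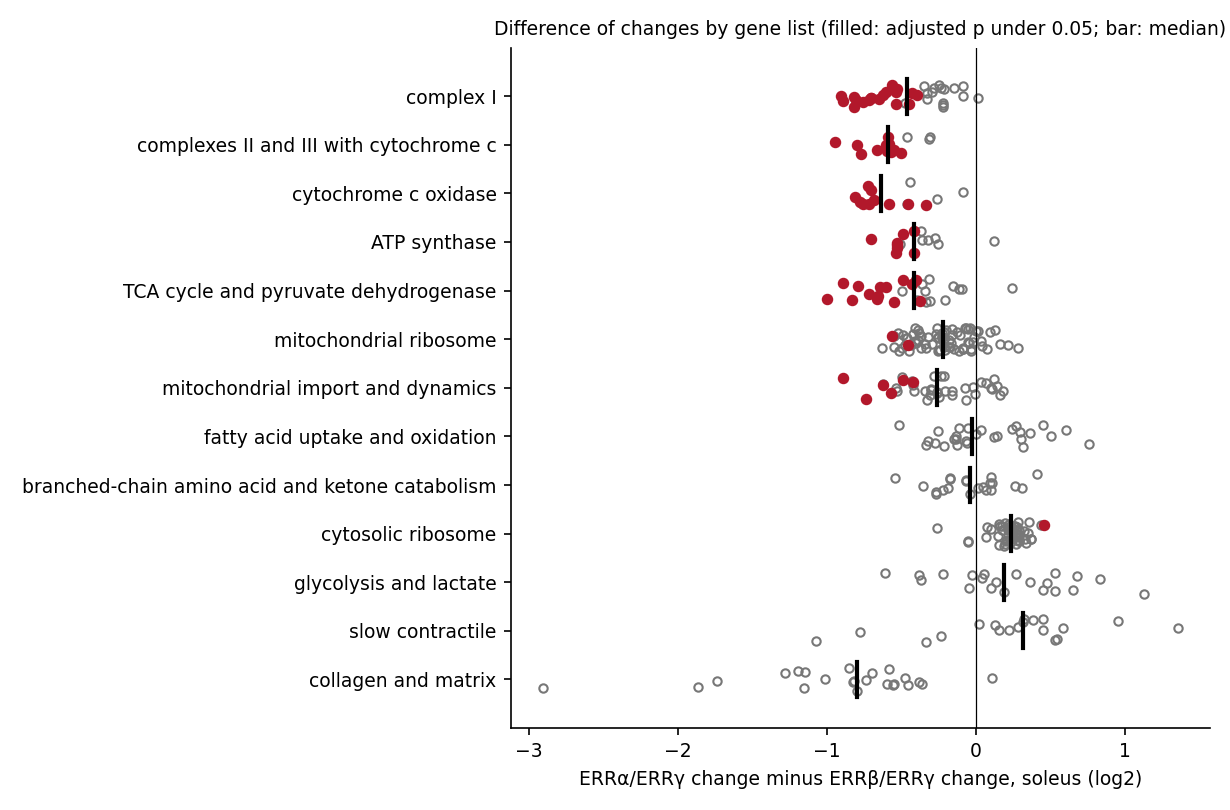
Difference of changes (horizontal axis, log2, ERRalpha/ERRgamma minus ERRbeta/ERRgamma) for the members of 13 gene lists (vertical axis); filled points were called at an adjusted p under 0.05 and bars are medians. Called genes crowd the 4 respiratory lists and the TCA cycle to the left of 0, while the fatty acid and branched-chain lists straddle 0 with no called gene.

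Genes for other mitochondrial functions differed in smaller numbers. Of 39 import and dynamics genes 6 were lower (median -0.26; 3 without ERRalpha/ERRgamma WT library 1), of 76 mitochondrial ribosome genes 2 (median -0.22; 6 without ERRalpha/ERRgamma dmKO-labelled library 3 and 7 without ERRbeta/ERRgamma dmKO-labelled library 2), and of 12 chaperones and proteases 1. Within the ERRalpha/ERRgamma class 34 of the 76 ribosome genes fell and 2 rose (median -0.22). In the ERRbeta/ERRgamma class 2 fell and 2 rose (median -0.04). Of the 39 import and dynamics genes 23 fell in the ERRalpha/ERRgamma class and 6 in the ERRbeta/ERRgamma class. Over all genes 5.86% and 3.55% fell in these classes. Mfn1 (chromosome 3, 32529465 to 32579239, plus strand), a mitofusin that joins outer membranes, held 4.35, 4.23 and 4.17 in ERRalpha/ERRgamma dmKO-labelled libraries, against 5.71, 5.68 and 5.74 in WT. It held 5.34, 5.79 and 5.51 in ERRbeta/ERRgamma dmKO-labelled libraries, against 6.16, 6.06 and 6.13 in WT. It fell in both classes, with changes of -1.46 ± 0.084 in ERRalpha/ERRgamma and -0.57 ± 0.084 in ERRbeta/ERRgamma (difference -0.89 ± 0.12, adjusted p = 3.31e-05), and its WT groups differed by -0.41 ± 0.084 (adjusted p = 0.00176). Immt, the cristae organiser mitofilin, differed by -0.62 ± 0.10, and Slc25a4, the muscle ADP/ATP carrier, by -0.74 ± 0.14. Mtfp1, a promoter of mitochondrial fission, differed by -1.08 ± 0.22. The ribosomal proteins Mrpl51 and Mrpl18 differed by -0.45 ± 0.091 and -0.56 ± 0.14, the protease subunit gene Afg3l2 by -0.46 ± 0.12, and Tbrg4, which acts on mitochondrial RNA, by -0.94 ± 0.15. Among 27 antioxidant genes 3 were lower: Sod2, the mitochondrial superoxide dismutase (chromosome 17, 13006846 to 13040063, plus strand), by -0.94 ± 0.13, the peroxiredoxin Prdx5 by -0.61 ± 0.12, and the glutaredoxin Glrx by -1.14 ± 0.26. Sod2 held 4.57, 4.69 and 4.68 in ERRalpha/ERRgamma dmKO-labelled libraries, against 5.99, 5.99 and 6.02 in WT, a loss to 39.1% of the WT level, and 5.71, 5.96 and 5.73 in ERRbeta/ERRgamma dmKO-labelled libraries, against 6.13, 6.12 and 6.39 in WT (75.1%). Glrx was not called without ERRbeta/ERRgamma dmKO-labelled library 1, its highest library at 5.06 (adjusted p = 0.0525), and neither was Afg3l2 (adjusted p = 0.0574). Afg3l2 was not called in 9 of the 12 fits that each leave out 1 library (adjusted p up to 0.125), Glrx in 3 (up to 0.0644) and Mrpl18 in 4 (up to 0.0955). With the 12 soleus libraries alone, Glrx, Prdx5, Immt, Slc25a4, Mtfp1, Mrpl51, Mrpl18 and Afg3l2 were not called.

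Several lower genes named by size lie outside energy metabolism. Gnb5 (chromosome 9, 75306288 to 75345876, plus strand), a G protein beta subunit that partners the R7 family of RGS proteins, held 0.41, 0.37 and 0.68 in ERRalpha/ERRgamma dmKO-labelled libraries, against 2.12, 2.17 and 2.46 in WT. It held 1.91, 2.59 and 2.09 in ERRbeta/ERRgamma dmKO-labelled libraries, against 1.25, 2.11 and 2.28 in WT, where the groups overlap. Its difference of -2.08 ± 0.31 (adjusted p = 0.000153) was the lowest among those of the 118 genes whose mean signal reached 1.59, the median over kept genes. Fndc5, which encodes the precursor of irisin, differed by -0.98 ± 0.17, with changes of -1.51 ± 0.12 in ERRalpha/ERRgamma and -0.53 ± 0.12 in ERRbeta/ERRgamma. Slc41a1, a magnesium transporter, changed by -2.18 ± 0.12 and -1.22 ± 0.12 in the same order (difference -0.96 ± 0.18), and Ciapin1, which takes part in cytosolic iron-sulfur assembly, by -1.52 ± 0.15 and -0.56 ± 0.15 (difference -0.96 ± 0.21). Vegfb, a vascular growth factor expressed with mitochondrial genes, changed by -1.44 ± 0.091 and -0.64 ± 0.091 in the same order (difference -0.81 ± 0.13), and its WT groups differed by 0.27 ± 0.091 (adjusted p = 0.0433). Mafa, a transcription factor of the large Maf family, which promotes the fast IIb myosin programme in mouse muscle, gave -0.94 ± 0.25 in the ERRalpha/ERRgamma class and 0.61 ± 0.25 in the ERRbeta/ERRgamma class (difference -1.55 ± 0.36, adjusted p = 0.0205). Slc41a1, Ciapin1 and Mafa were not called with the 12 soleus libraries alone (adjusted p = 0.0896, 0.13 and 0.102), and Ciapin1 was not called in 2 of the 12 fits that each leave out 1 library (adjusted p up to 0.0617) and Mafa in 4 (up to 0.0796).

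The 43 higher genes shared fewer lists: none is in a respiratory list, 4 are in any pathway list and 38 in no list. Rgs2 (chromosome 1, 143999338 to 144004161, minus strand), a GTPase activator that dampens Gq signalling, held 3.55, 3.69 and 3.86 in ERRalpha/ERRgamma dmKO-labelled libraries, against 2.37, 2.04 and 2.01 in WT. It held 1.71, 1.22 and 0.94 in ERRbeta/ERRgamma dmKO-labelled libraries, against 1.76, 2.25 and 1.43 in WT. It rose to 295% of WT in the first class and was not called in the second, and the difference was 2.08 ± 0.35 (adjusted p = 0.000779). Stbd1 (chromosome 5, 92603041 to 92606579, plus strand), a glycogen-binding protein linked to glycogen turnover in lysosomes, held 4.30, 4.44 and 4.65 in ERRalpha/ERRgamma dmKO-labelled libraries, against 2.16, 2.49 and 2.27 in WT. It held 3.71, 3.22 and 3.62 in ERRbeta/ERRgamma dmKO-labelled libraries, against 2.80, 2.58 and 2.80 in WT. It rose in both classes, to 446% of WT in the first and 172% in the second, and it was the 1 called member of 15 glycogen genes (difference 1.37 ± 0.28), or 1 of 5 without ERRbeta/ERRgamma dmKO-labelled library 2. Jun, a subunit of the AP-1 transcription factor and the 1 called member of 18 immediate early genes, rose by 0.83 ± 0.11 in the ERRalpha/ERRgamma class and gave 0.029 ± 0.11 in the other (difference 0.80 ± 0.16). Cetn2, a centrin, differed by 0.94 ± 0.14, the methyltransferase gene Smyd2 by 0.96 ± 0.23, and Ttc17 by 0.70 ± 0.16. Myh8, the perinatal myosin heavy chain, held 2.66, 2.80 and 3.19 in ERRalpha/ERRgamma dmKO-labelled libraries, against -1.34, -0.58 and -0.32 in WT. It held -2.23, -1.35 and 1.77 in ERRbeta/ERRgamma dmKO-labelled libraries, against -0.13, 0.47 and -0.59 in WT. Its difference of 4.15 ± 0.79 rests on low signals spread widely within the ERRbeta/ERRgamma dmKO-labelled group, and it was not called with the 12 soleus libraries alone (adjusted p = 0.235).

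WT groups differed in 22 of the 43, in 21 of them with ERRalpha/ERRgamma WT lower, and the dmKO-labelled groups differed directly in 23. Among the 118 lower genes the dmKO-labelled groups differed directly in 109 and the WT groups in 26. Over all genes the dmKO-labelled groups differed in 2063 of 13382 (15.4%), 1165 higher (8.71%) and 898 lower (6.71%). The WT groups differed in 1855 of 13378 (13.9%). The class difference equals the dmKO-labelled difference minus the WT difference. Genes called in it therefore tend to show these differences by selection, and the counts are no separate evidence. Tcap, the Z-disc cap of titin, gave -0.21 ± 0.15 in the ERRalpha/ERRgamma class, which was not called, and fell in the ERRbeta/ERRgamma class (-1.02 ± 0.15). Its WT groups differed by -1.14 ± 0.15, and its dmKO-labelled groups by -0.34 ± 0.15, which was not called (adjusted p = 0.121). Nup133, a nucleoporin gene, and Rnpc3, of the minor spliceosome, fell in the ERRbeta/ERRgamma class (-0.92 ± 0.12 and -0.67 ± 0.15), while neither was called in the ERRalpha/ERRgamma class (-0.21 ± 0.12 and 0.41 ± 0.15). Their WT groups differed by -0.47 ± 0.12 and -0.71 ± 0.15. Styx, a pseudophosphatase, rose by 0.59 ± 0.09 in the ERRalpha/ERRgamma class, its WT groups differed by -0.79 ± 0.09, and its dmKO-labelled groups gave -0.077 ± 0.09, which was not called (adjusted p = 0.642). Zfp51 and Cmbl differed by 0.91 ± 0.22 and 0.90 ± 0.22, with WT groups that differed by -0.52 ± 0.16 for Zfp51. Without ERRbeta/ERRgamma dmKO-labelled library 1, Tcap, Nup133, Smyd2, Zfp51 and Cmbl were not called (adjusted p = 0.115, 0.0508, 0.0757, 0.0866 and 0.0764), and with the 12 soleus libraries alone Rnpc3, Styx and Ttc17 were not either (adjusted p = 0.167, 0.112 and 0.153). Tcap was not called in 9 of the 12 fits that each leave out 1 library (adjusted p up to 0.145), Nup133 in 7 (up to 0.101), Smyd2 in 7 (up to 0.0888), Zfp51 in 7 (up to 0.119), Cmbl in 7 (up to 0.107) and Ttc17 in 3 (up to 0.0796).

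Other gene groups held few or no called differences. Of 51 cytosolic ribosomal protein genes, 41 rose in the ERRalpha/ERRgamma class (median 0.38, beside 0.11 over all genes) and none in the ERRbeta/ERRgamma class (median 0.15, beside 0.05), yet Rpl4 alone was called in the difference (0.46 ± 0.091), with a list median of 0.24. Rpl4 was not called with the 12 soleus libraries alone (adjusted p = 0.194) or with the 18 (adjusted p = 0.0549), and without ERRbeta/ERRgamma dmKO-labelled library 1 there were 11 called. The 41 became 27 without ERRalpha/ERRgamma WT library 2, and 27 rose in the ERRbeta/ERRgamma class without dmKO-labelled library 2 of that class. Ribosomal protein genes share reads with pseudogenes, which leaves their values uncertain. Of 21 glycolysis and lactate genes 8 rose and 2 fell in the ERRalpha/ERRgamma class (6.84% and 5.86% over all genes). In the ERRbeta/ERRgamma class 7 rose and 2 fell (3.16% and 3.55% over all genes). Those 7 became 2 to 4 without dmKO-labelled library 1 or 2 or any 1 WT library of that class. None of the 21 was called in the difference (median 0.19), the lowest p being that of the muscle enolase Eno3 (0.65 ± 0.21, adjusted p = 0.128). No slow contractile gene of 19 was called, with a median of 0.32 and intervals holding 0 for 18 (11778 of 13365 over all genes tested): Myh7 gave 0.45 ± 1.33 (95% interval -2.28 to 3.18) and the slow troponin Tnni1 0.55 ± 0.66 (-0.82 to 1.91). These intervals use a spread estimated over all 36 libraries, EDL included. For Myh7 the interval is far wider than the range of its soleus values given above, so it does not give the spread within soleus. The intervals of the other slow contractile genes may not give it either. The lack of calls therefore does not show that these genes were alike in the 2 classes. Tnnt3, the fast troponin T, came nearest among 17 fast contractile genes (-0.87 ± 0.23, adjusted p = 0.0577). Ppargc1a, which encodes the ERR coactivator PGC-1alpha, rose by 1.56 ± 0.45 in the ERRalpha/ERRgamma class and gave 0.55 ± 0.45 in the other, and the difference of 1.01 ± 0.63 was not called (95% interval -0.28 to 2.30). Sirt3, the mitochondrial deacetylase, gave -0.67 ± 0.20 (adjusted p = 0.115). The collagen and matrix list had a median difference of -0.80 with no called gene of 23: its summed signal was 275 to 346 in ERRalpha/ERRgamma dmKO-labelled libraries, against 204 to 399 in WT, and 142 to 714 in ERRbeta/ERRgamma dmKO-labelled libraries, against 119 to 322 in WT.

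The member with the lowest p stands for each of the other lists with no call. Gatm, which makes the creatine precursor, gave -1.94 ± 0.66, the matrix crosslinker Lox -1.87 ± 0.73, the stress gene Ddit4 -1.65 ± 0.84 and phospholamban, Pln, 1.36 ± 0.66. Ppp3cb, of calcineurin, gave 0.35 ± 0.12, the acetylcholine receptor subunit gene Chrna1 0.68 ± 0.26, the clock output factor Tef 0.44 ± 0.14 and the proteasome subunit gene Psmd6 0.33 ± 0.10, none of them called. Marker genes of endothelial, smooth muscle, fibroblast, tendon, leukocyte, fat, Schwann and red blood cells held no called difference, and of 11 muscle identity markers only Tcap was called. Endothelial markers summed to 124 to 148 in ERRalpha/ERRgamma dmKO-labelled libraries, against 152 to 156 in WT, and to 65.3 to 89.6 in ERRbeta/ERRgamma dmKO-labelled libraries, against 77 to 89.1 in WT. The WT groups were called apart in 11 of the 13 markers and the dmKO-labelled groups in 10, each higher in the ERRalpha/ERRgamma class. Over all genes tested 5.99% were higher in the first comparison and 8.71% in the second. The lowest p among markers of other cells belonged to Vwf of endothelium (-0.62 ± 0.37), Pdgfrb of pericytes (-0.46 ± 0.28), Dcn of fibroblasts (0.63 ± 0.39), Thbs4 of tendon (-1.10 ± 0.70), Cd68 of macrophages (-1.05 ± 1.14), Cfd of fat (1.42 ± 1.14), Prx of Schwann cells (-1.46 ± 0.97) and Alas2 of red blood cells (-1.10 ± 1.07). Red blood cell markers reached 3927 in ERRalpha/ERRgamma WT library 2 and Schwann markers 149.7 in library 3 of that group, against at most 980 and 32.8 in the other 11 libraries. The part of these cells in the results was not tested. The respiratory chain count was 49 of 79 with all libraries, 50 without ERRbeta/ERRgamma dmKO-labelled library 1, and 42 to 50 whichever soleus library of the 2 classes was left out.

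The same difference was measured in EDL to show where soleus differs. There 914 of 13302 genes were called (6.87%), 374 higher (2.81%) and 540 lower (4.06%), and 114 of the 118 genes lower in soleus were also lower in EDL, while 18 of the 43 higher ones were also higher. The difference between muscles was itself called for 48 of the 118 and for 1 of the 43, of 163 genes in all (1.23%), 147 of them higher in soleus (1.11%) and 16 lower (0.121%). In the respiratory chain 73 of 79 genes were lower in EDL, with a median of -1.28, beside 49 and -0.53 in soleus, and the muscles differed in 48 of the 79, each time with the higher value in soleus. Esrra itself changed by -0.57 in soleus and by -2.23 in EDL within the ERRalpha/ERRgamma class. Its class difference also differed between the muscles (1.57 ± 0.23, adjusted p = 0.000124). Whether this bears on the other genes was not tested. Ndufa8 differed between classes by -0.89 ± 0.093 in soleus and -1.92 ± 0.093 in EDL (difference between muscles 1.03 ± 0.13, adjusted p = 1.85e-05). Cycs, cytochrome c, gave -0.60 ± 0.12 in soleus and -2.14 ± 0.12 in EDL, and Cyc1, its electron donor in complex III, -0.58 ± 0.12 in soleus and -2.09 ± 0.12 in EDL (in soleus neither was called with the 12 soleus libraries alone, adjusted p = 0.128 and 0.0591). Atp5b gave -0.36 ± 0.13 in soleus and -2.06 ± 0.13 in EDL, a difference of 1.69 ± 0.18. The 2 muscles were not called apart for Ciapin1 (-0.96 ± 0.21 in soleus and -0.92 ± 0.21 in EDL), Stbd1 (1.37 ± 0.28 and 1.38 ± 0.28) or Rgs2 (2.08 ± 0.35 and 1.72 ± 0.35), with adjusted p of 0.983, 0.997 and 0.906. Fatty acid genes were lower in EDL in 12 of 28 (median -0.66) and in none in soleus, and the muscles were called apart for 4. Slow contractile genes were higher in EDL in 9 of 19 and in none in soleus, and Csrp3, a Z-disc LIM protein, was the 1 slow contractile gene called apart (-0.78 ± 0.94 in soleus and 5.27 ± 0.94 in EDL).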

How the data were processed

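RNA from soleus and EDL of 36 muscle samples was sequenced as directional libraries from 400 ng of RNA with 10 PCR cycles, per the labels' protocols. Partek 6.6 and the build GRCm38.p6/mm10 are named in the submitters' processing notes. The aligner, the counter and the strand setting were not given in the sources used here. Deposited values are log2 quantile-normalized signals made by the authors. The log base was checked on the steps between low values, and quantile normalization and the unknown depth mean that no counting interval can be given. Of 45802 gene rows, 27904 held no value, 27 had symbols turned into dates and were left out, and 13404 of 17873 genes passed a filter at the 25th percentile of mean signal. The 13 genes of mitochondrial DNA had no value and were not analysed here.

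Columns were matched to groups by their names, which carry an animal but no replicate number. A library's number here only names it and follows the order of the columns. limma 3.58.1 in R 4.3.3 was fitted to 12 group means over all 36 libraries, with an intensity trend and Benjamini-Hochberg adjustment over all genes tested, and was tested on simulated data. Sharing 1 estimate of spread assumes that the soleus groups vary like the rest. Percentages of WT are powers of 2 of the log2 change. Figures were drawn in Python 3.11.15 with pandas 2.3.3 and matplotlib 3.10.9.

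The genes named are the receptors, the 12 largest called differences in each direction among genes at or above the median level and complete in the 12 libraries, and up to 3 called members of each list with the lowest p, or 1 where none was called. A gene that this rule picks is not reported here. Other list members were named after their values were seen, to show members that did and did not differ. Members and lists were chosen with earlier results of these data known, and support nothing by their choice. Alternatives changed the libraries in the fit, the filter, the treatment of missing values, the scaling, the variance model, and left out each library in turn.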

Additional observations from a re-analysis of the deposited data

Results flagged for a closer look

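The difference between the classes was itself tested between soleus and EDL, and these results differed between the muscles. Over all genes, 147 had a higher value in soleus and 16 a lower one. In the respiratory chain the soleus value minus the EDL value was 1.03 for Ndufa8 and 0.746 for Ndufab1 of complex I. It was 1.01 for Uqcrc1 and 0.904 for Uqcr10 of complex III, and 0.59 for Cox6b1, 0.69 for Cox5a and 0.698 for Cox5b of cytochrome c oxidase. For ATP synthase it was 0.621 for Atp5f1, 1.06 for Atp5g3 and 0.688 for Atp5h. Dlat, of pyruvate dehydrogenase, gave 0.9 and Idh3b, of isocitrate dehydrogenase, 1.07. The cristae organiser Immt gave 0.609, the deacetylase Sirt3 1.16 and the growth factor Vegfb 0.733. Each of these had the lower value in EDL. Esrra gave 1.57, from -0.65 ± 0.16 in soleus and -2.21 ± 0.16 in EDL. Styx gave 0.717, from 0.71 ± 0.13 in soleus and -0.0035 ± 0.13 in EDL.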

How the results depend on the processing

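Of the 49 named genes called, 23 kept their call with the 12 soleus libraries alone, 34 with the 18 soleus libraries, 44 without the intensity trend, 45 after recentring and 41 to 48 when 1 library was left out. With the 12 soleus libraries alone the class difference held 29 genes (5 higher, 24 lower), the ERRalpha/ERRgamma change 933, the ERRbeta/ERRgamma change 285, the dmKO-labelled groups 1016 and the WT groups 563. With the 18 soleus libraries the counts were 96 (14 higher), 496 for ERRbeta/ERRgamma and 1127 for the WT groups. Array weights gave 652 (306 higher, 346 lower), 2469 for ERRbeta/ERRgamma, 3754 for the dmKO-labelled groups, 1372 in EDL and 424 between muscles. The stricter filter gave 66 higher genes and recentring 28. An alternative chosen after seeing the data, the 12 soleus libraries less ERRbeta/ERRgamma dmKO-labelled library 1, gave 52 (4 higher, 48 lower), 156, 1206 for the WT groups and 1334 for the dmKO-labelled groups. Leaving out 1 library, the class difference ranged over 122 to 323 genes (29 to 156 higher, 93 to 167 lower), the ERRalpha/ERRgamma change over 1234 to 1941, the ERRbeta/ERRgamma change over 396 to 2139, the WT groups over 1044 to 2240 and the muscles over 107 to 261. Fewer samples leave fewer degrees of freedom; beyond that the cause was not tested. Esrrg turned to -0.023 with array weights, and Cd68 to 0.36 without ERRbeta/ERRgamma dmKO-labelled library 1, in both fits, where single left-out libraries gave -2.19 to 0.36. No paired analysis was possible because the groups compared share no animal and their column names carry no replicate number. That holds for comparisons within a muscle, whereas soleus and EDL do share animals. Taking the animal as a random block over the 14 animals that gave both muscles, which links soleus to EDL, gave 161 genes for the class difference in soleus. For the difference between muscles the same block gave 190 genes (167 higher in soleus, 23 lower). Without the block there were 163 (147 higher, 16 lower). Depth is unknown, so what it limits cannot be stated.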

Other observations

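The following class differences are for genes outside the lists, picked after their values were seen. Coq7 (-0.74 ± 0.13) and Coq5 (-0.68 ± 0.11) act in coenzyme Q synthesis, and Cox10 (-0.85 ± 0.16) in haem A synthesis. Lower genes with a part in iron-sulfur clusters were Isca1 (-0.51 ± 0.11), Bola3 (-0.50 ± 0.10) and the cytosolic Narfl (-0.63 ± 0.15). Trak1 (-0.55 ± 0.14), Trak2 (-0.69 ± 0.15) and Rhot2 (-0.78 ± 0.12) encode adaptors that couple mitochondria to microtubule motors. Me3, the mitochondrial NADP-dependent malic enzyme, differed by -1.56 ± 0.18, and Phyh, a peroxisomal hydroxylase, by -0.76 ± 0.16. The potassium channel subunit gene Kcng4 gave -2.70 ± 0.65 and Tmem74b -2.72 ± 0.66; Tmem74b was not called without ERRbeta/ERRgamma dmKO-labelled library 1 (adjusted p = 0.0538). Among higher genes were Thpo (1.54 ± 0.36), which encodes thrombopoietin, Gfer (0.58 ± 0.13), of the intermembrane space import pathway, and Eef1a2 (0.49 ± 0.12), the muscle form of a translation elongation factor. With the 12 soleus libraries alone Coq7, Cox10 and Me3 were called (adjusted p = 0.0241, 0.027 and 0.0371), and the other genes of this paragraph were not, with adjusted p between 0.0538 (Phyh) and 0.37 (Eef1a2).

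Within 250 kb of Esrra, 17 genes were tested, with a median difference of -0.18 and 2 lower: Prdx5, 0.9 kb away, and Vegfb, 60.7 kb away. Within the same distance of Esrrb none of 4 was called, and no gene near Esrrg was tested.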
